A study of Bos taurus with 32 samples.

Results

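Of 27607 genes in the count table, 128 formed the group of abundant genes that were read mainly in the testicle. Counts were scaled to a column total of 1000000 (CPM) and averaged over the 8 columns of a tissue. A gene was a member when its testicle mean was at least 15 CPM and when that mean, after 0.5 CPM was added to both sides, was at least 8 times the mean in each of the other 3 tissues. The members were thus chosen by their mean levels in the 4 tissues, which are given as a description, with no test. The rule did not use the origin of the embryos. The table names genes by Ensembl identifiers and none was paired with a symbol, so members are called by their abundance rank in the testicle, from 1 for the most abundant to 128.

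In 8 male Holstein calves, RNA was sequenced from testicle, adrenal, pituitary and hypothalamus. In the IVP group, calves 3208, 3209, 5833 and 5841 developed from embryos produced in vitro. In the control group, MOET, calves 3213, 3217, 3218 and 5932 developed from embryos conceived in vivo, after the dam's ovaries were superstimulated and the dam was artificially inseminated. Recipient cows carried the embryos of either origin, and calves were kept alike after birth. Age at collection was 98 to 104 days, except for MOET 3213 at 144 days. Each sample is a piece of whole tissue, so fewer cells of a type and less RNA per cell cannot be told apart.

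The testicle of a calf before puberty holds seminiferous cords, in which Sertoli cells surround germ cells that have not begun to form sperm, and an interstitium with the steroid-making Leydig cells. Sertoli cells are known for anti-Müllerian hormone and inhibin, Leydig cells for androgens and an insulin-like peptide that acts on testicular descent, and germ cells for proteins that silence transposons. The adrenal cortex shares its embryonic origin and much of its steroid pathway with the gonad. Which members belong to these cells was not analysed here, and the tissue labels were not checked against markers by name.

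Of the 32 deposited columns, 5 were not independent measurements. The MOET 3213 column in each of the 4 tissues, and the IVP 5833 column in the adrenal, followed the geometric mean of the other 3 columns of their group. Around that mean their squared deviations were 0.0117 to 0.0999 of the variance that counting reads gives by itself, for genes with 100 to 2000 counts. In the other 27 columns the same ratio, with dependent columns left out of the mean, was between 2.62 and 90.8. When the logarithm of each dependent column was fitted on those of the other 3 columns, every coefficient lay between 0.287 and 0.383. In the testicle, 125 of the 128 members in MOET 3213 lay within 0.1 log2 units of the mean of MOET 3217, 3218 and 5932, and all 128 lay between the lowest and highest of these 3. Libraries sequenced separately vary around such a mean by at least their own counting noise. The sources used here do not say how these columns were made. They add no replicate, and p-values that count them as replicates are too small. Means, SDs, deviations and overlaps of groups below therefore leave them out (4 IVP and 3 MOET testicles). The counts of genes passing edgeR in each main comparison are given both over all columns and without them. Some alternatives, named in the closing part, were run over all columns only. Values of MOET 3213 are printed where all columns are listed, and add no further calf to the group. The age of 144 days belongs to this column alone, so age could not be examined.

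Column totals ran from 17357283 to 23380330 counts. Each member had at least 63 counts in every testicle, and 125 had at least 100. In the smallest library, 3 counts, the limit that a count of 0 allows, correspond to 0.173 CPM.

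The members spanned a wide range of abundance. Their testicle means ran from 15.3 to 15790 CPM, with a median of 86.6 CPM and quartiles of 29.2 and 211.5 CPM. In all, 8 members were at 1000 CPM or more, 47 between 100 and 1000, 40 between 30 and 100 and 33 between 15 and 30. The member of rank 1 held 27.0% of all counts of the members, and the first 2 held 49.2%. The first 10 held 74.0%, which was 4.33% of all testicle counts. All members together took 4.82% to 7.24% of the counts of a testicle. In the adrenal they took 0.227% to 0.364%, in the hypothalamus 0.108% to 0.137% and in the pituitary 0.079% to 0.109%.

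**Figure D1:**
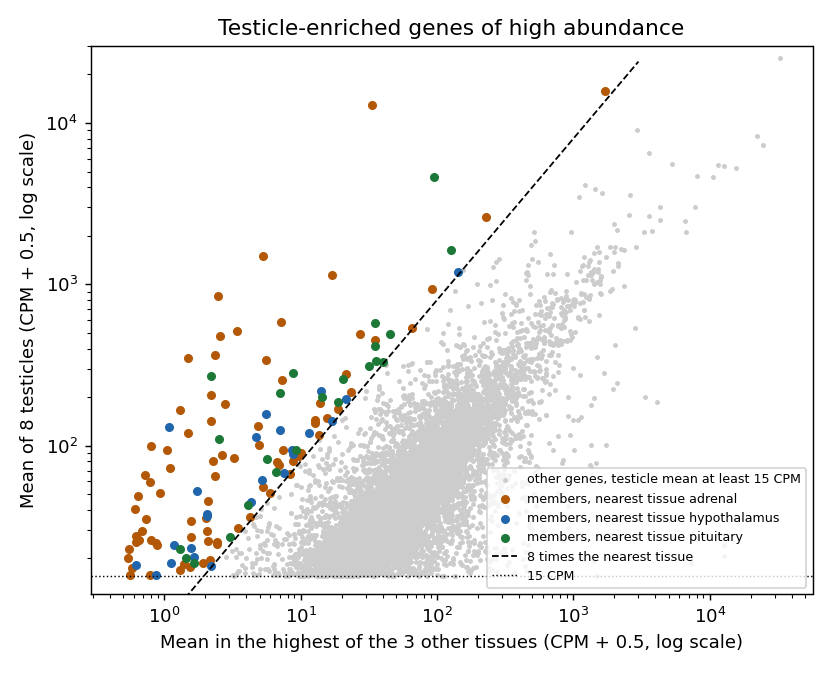
Mean CPM plus 0.5 of 8 testicle columns (vertical, log scale) against the highest mean of the 3 other tissues (horizontal, log scale), 1 point a gene. Members are coloured by their nearest tissue and lie left of the dashed line of 8 times that tissue and above 15 CPM, and grey points are the 8666 other genes at 15 CPM or more.

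Among the other tissues the adrenal was most often the nearest. It held the highest other mean for 81 members, the hypothalamus for 24 and the pituitary for 23. Means of at least 15 CPM were found for 19 members in the adrenal, 14 in the pituitary and 12 in the hypothalamus. At the other end, 33 members were under 1 CPM in all 3 other tissues. The ratio to the nearest tissue ran from 8.05 to 390.5 with a median of 17.05. It was at least 16 in 66 members, at least 32 in 39 and at least 100 in 11. In all 128 members the lowest testicle column exceeded the highest column of any other tissue.

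The most abundant members differed in how strictly they kept to the testicle. Rank 1 averaged 15790 CPM in the testicle, 1700 CPM in the adrenal, 415 CPM in the hypothalamus and 141 CPM in the pituitary. Rank 2 averaged 12957 CPM in the testicle, 32.7 CPM in the adrenal, 4.09 CPM in the hypothalamus and 0.247 CPM in the pituitary, where each column held 2 to 8 counts. Thus the first 2 members were of like testicle abundance, and their adrenal means lay far apart. Rank 3 had its highest other mean in the pituitary, at 95.0 CPM beside 4645 CPM in the testicle. The testicle mean of rank 6 was 1488 CPM beside 4.796 CPM in the adrenal, and that of rank 10 was 843 CPM beside 1.95 CPM. Rank 7 had the hypothalamus as nearest tissue, at 142 CPM beside 1199 CPM in the testicle.

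Both limits of the rule fell within a continuous range. The 3 members just above the abundance limit averaged 15.3, 15.3 and 15.4 CPM, and the 3 genes just below it 14.8, 14.3 and 13.4 CPM. The smallest ratios to the nearest tissue inside the rule were 8.05, 8.15 and 8.19, and the largest outside it 7.99, 7.96 and 7.91. A further 54 genes met the ratio with a testicle mean under 15 CPM. Without the 5 dependent columns the rule gave 125 genes, of which 124 were among the 128.

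Levels in single testicles are given from here on as CPM on totals scaled by TMM, which adjusts library totals for a few genes taking a large share of the reads. Between calves of 1 origin the members varied more than other genes of the testicle. The SD of log2 levels within origins, over the 7 independent testicles, had a median of 0.37 in the members and 0.24 in the 8666 other genes at 15 CPM or more. It exceeded 0.5 in 39 members, or 30.5%, and in 12.8% of the other genes.

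Much of this spread came with 2 testicles, IVP 3209 and MOET 5932. Without them, on 5 testicles, the median SD was 0.18 in the members and 0.10 in the other genes. On the first principal component of the members' deviations, which held 73.6% of their variance, these testicles scored 0.70 and 0.47. The other 5 scored between -0.29 and -0.16. The other genes gave the same picture, with 87.1% of variance and scores of 0.68 and 0.49. The pattern was therefore not particular to the members.

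Many members were high in both testicles or low in both. In 39 members (30.5%) each was the highest of its origin, and in 45 (35.2%) each was the lowest, beside 42.2% and 33.2% of the other genes. On plain column totals the counts were 28 (21.9%) and 58 members (45.3%), beside 26.6% and 50.1% of the other genes, since the scaling shifts all genes of a library together. The scaling factors of IVP 3209 and MOET 5932 were 0.8203 and 0.9563. Their 100 most abundant genes took 31.0% and 29.0% of the counts, and 23.8% to 25.6% in the other testicles. Across the 128 members the deviations of both testicles from the others of their origin had a Spearman correlation of 0.82, which describes points that share library and scaling, and 0.91 across the other genes.

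**Figure D2:**
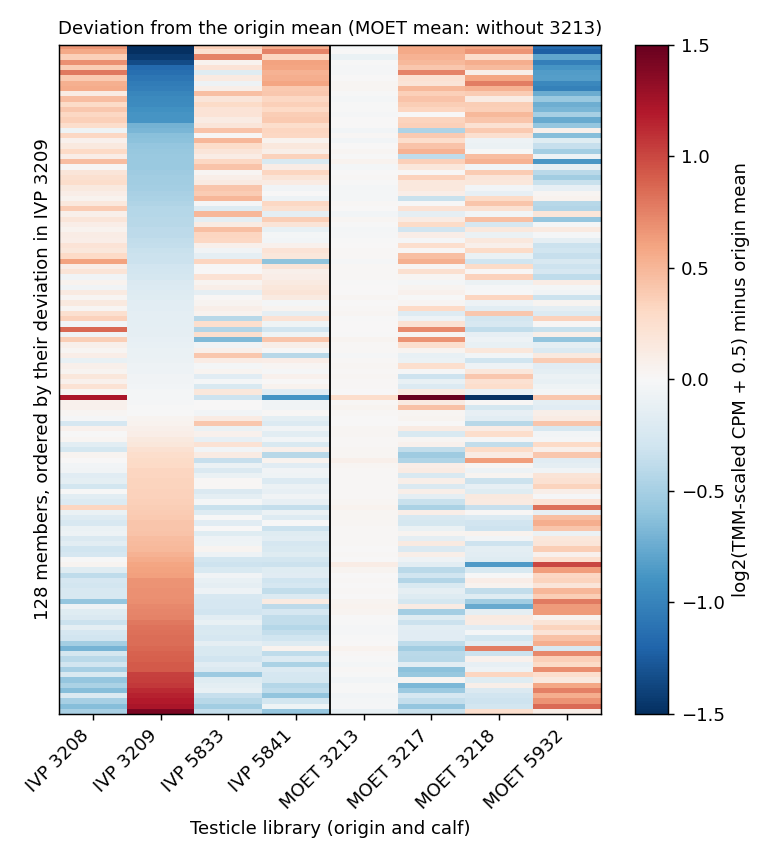
Deviation of each testicle column from the mean of its origin, in log2 units (colour, cut at 1.5 either way), for the 128 members in rows ordered by IVP 3209; the MOET mean leaves out 3213. IVP 3209 and MOET 5932 carry the strongest colours in like order, and the MOET 3213 column is nearly blank because it follows the mean of the other 3.

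The most abundant members were mostly on the high side of these testicles. Of the first 10, 8 were the highest of their origin in both and 1 was the lowest in both. Their median deviation was 0.93 log2 units in IVP 3209 and 0.84 in MOET 5932. Among the 23 members whose nearest tissue was the pituitary, 4 were highest and 12 lowest in both. Ranks 97 to 128 divided into 7 highest and 11 lowest.

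Rank 1 was at 14579, 25163, 14089 and 14553 CPM in IVP 3208, 3209, 5833 and 5841. In MOET 3213, 3217, 3218 and 5932 it was at 14834, 10945, 12372 and 22223 CPM. The columns of 3209 and 5932 stood above all others. Among the remaining independent testicles the 3 of IVP lay above the 2 of MOET. Rank 2, in the same order, was at 12193, 22939, 11360 and 11596 CPM in IVP and at 11727, 8025, 10440 and 17864 CPM in MOET, with the same columns on top. Rank 3 was the steadiest member, with an SD of 0.07 log2 units. It was at 5088, 4973, 4823 and 5038 CPM in IVP and at 4343, 4407, 3958 and 4567 CPM in MOET, so that every IVP testicle lay above every MOET testicle.

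Rank 4 was at 2469, 4679, 2722 and 2389 CPM in IVP and at 2257, 1646, 2397 and 2816 CPM in MOET, with 3209 and 5932 again the highest of their origins. Rank 5 was narrower, at 1513, 2131, 1588 and 1625 CPM in IVP and 1575, 1325, 1596 and 1773 CPM in MOET. Rank 10, listed in the pituitary at a mean of 0.00535 CPM, was at 776, 2003, 705 and 596 CPM in IVP and 693, 596.5, 585 and 1039 CPM in MOET. In ranks 4, 5 and 10 the remaining testicles of both origins overlapped.

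Rank 8 showed the high pattern too, at 849.5, 2455, 1065 and 874.5 CPM in IVP and 1011, 634.8, 1078 and 1514 CPM in MOET. Rank 9 showed the opposite one, at 1128, 733.6, 997.1 and 1245 CPM in IVP and 818.3, 806.8, 1082 and 604.4 CPM in MOET. In rank 9 the columns of 3209 and 5932 were the lowest of their origins.

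The 5 members with the largest SD were ranks 112, 59, 113, 16 and 128, from 1.30 to 0.87 log2 units. Rank 16 was at 733.5, 179.3, 470.3 and 690.0 CPM in IVP and at 401.8, 566.7, 591.1 and 198.4 CPM in MOET. Rank 59 was at 128.8, 29.8, 101.9 and 145.9 CPM in IVP and at 72.1, 106.5, 113.7 and 30.5 CPM in MOET. In both, as in ranks 113 and 128, IVP 3209 and MOET 5932 were the lowest of their origins. Rank 112 had another order, at 44.3, 18.2, 14.9 and 9.81 CPM in IVP and 19.1, 46.1, 3.85 and 21.2 CPM in MOET, with IVP 3208 and MOET 3217 on top.

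**Figure D3:**
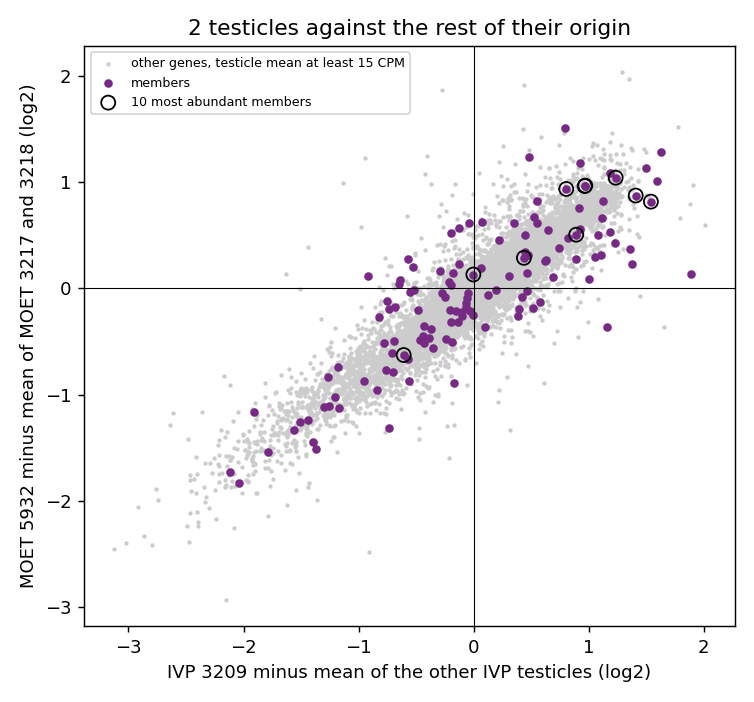
Log2 deviation of MOET 5932 from the mean of MOET 3217 and 3218 (vertical) against that of IVP 3209 from the mean of the other 3 IVP testicles (horizontal), 1 point a gene. Members (purple) lie along the same diagonal as the other genes (grey), with 8 of the 10 most abundant members (ringed) among those highest in both.

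The first comparison asked whether members differed in the testicle between calves of both origins. No member passed edgeR's quasi-likelihood test at an adjusted p under 0.05, over all 8 columns or over the 7 independent ones. Over all 8 columns, 1 of 16352 genes passed, or 0.00612%, and over the 7 it was 1 of 16518, or 0.00605%. On the 7 testicles, 25 members, or 19.5%, had an unadjusted p under 0.05, of which 9 were higher and 16 lower in IVP. The same held for 4.99% of all genes tested (1.54% higher, 3.45% lower) and for 2.56% of the 8666 other genes at 15 CPM or more. Over all 8 columns it was 36 members, or 28.1%, and 9.04% of all genes. Among the 54 genes of lower abundance under the same ratio rule it was 31.5% in either fit.

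DESeq2's Wald test called 9 members over all 8 columns (2 higher, 7 lower in IVP), beside 1.77% of all genes (0.838% and 0.93%). Over the 7 independent testicles it called 4 (1 higher, 3 lower), beside 0.375% (0.236% and 0.139%). Without IVP 3209, MOET 5932 and MOET 3213, edgeR called 2 members, both higher in IVP, beside 0.497% of all genes (0.401% higher, 0.0958% lower), from 3 testicles against 2. A covariate was also tried, each testicle's score on gene loadings averaged over the first components of the 3 other tissues. The highest scores were those of IVP 3209 and MOET 5932, the testicles that also led the testicle's own first component. With this score in the edgeR fit, 42 members passed over all 8 columns (26 higher, 16 lower), beside 12.3% of all genes (7.23% and 5.07%). On the 7 testicles this fit gave 7 members (3 higher, 4 lower), beside 0.866% (0.557% and 0.309%). The number of members called in the testicle therefore depended on the test and on the covariate.

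The IVP and MOET testicles did not overlap in 25 members (19.5%), beside 7.29% of all genes tested. The share was 5.83% in the 8666 other genes at 15 CPM or more. Among the 54 genes of lower abundance under the same ratio rule it was 29.6%. Of the 25 members, 12 lay higher in IVP, beside 3.03% of all genes, and 13 lower, beside 4.26%. The median log2 fold change of IVP over MOET was 0.18 in the members and 0.03 in all genes, on the 7 testicles. It was positive in 93 members and negative in 35, or positive in 72.7%, beside 69.4% of the 8666 other genes at 15 CPM or more and 55.6% of all genes. On library totals without TMM, over all 8 columns, the median of all genes moved from 0.03 to -0.08 and that of the members from 0.19 to 0.07, so the direction of a small fold change depends on the scaling.

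The direction differed along the order of abundance. All 10 of the first 10 members had a positive fold change, with a median of 0.27, and none had an unadjusted p under 0.05, where 69.4% of the other genes at 15 CPM or more were positive. Of ranks 11 to 32, 21 of 22 were positive (median 0.24), of ranks 33 to 64, 27 of 32 (median 0.20), and of ranks 65 to 96, 19 of 32 (median 0.12). Ranks 97 to 128 had 16 of 32 positive, and 1 higher and 10 lower in IVP at an unadjusted p under 0.05. At that threshold 1.54% of all genes tested were higher and 3.45% lower. Of the 54 genes of lower abundance under the same ratio rule, 31.5% were positive, with 4 higher and 13 lower. The lean to lower levels at low abundance was therefore not particular to the members. Without IVP 3209 and MOET 5932 as well, the median of ranks 1 to 10 was 0.24 and that of ranks 11 to 32 was 0.10. The median of ranks 33 to 64 was then 0.12, that of ranks 65 to 96 was 0.15 and that of ranks 97 to 128 was -0.20. These medians did not fall steadily with rank. The 33 members under 1 CPM in every other tissue had 14 positive and 19 negative, with a median of -0.03 (-0.34 without IVP 3209 and MOET 5932), and 1 higher and 10 lower at that threshold. The 95 others had 79 positive and 16 negative, with a median of 0.21 (0.15 without IVP 3209 and MOET 5932), and 8 higher and 6 lower. The 33 were also less abundant, with a median testicle mean of 25.4 CPM beside 118.8 CPM in the 95. Low abundance and restriction to the testicle therefore cannot be told apart here. The difference between these classes was not tested.

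**Figure D4:**
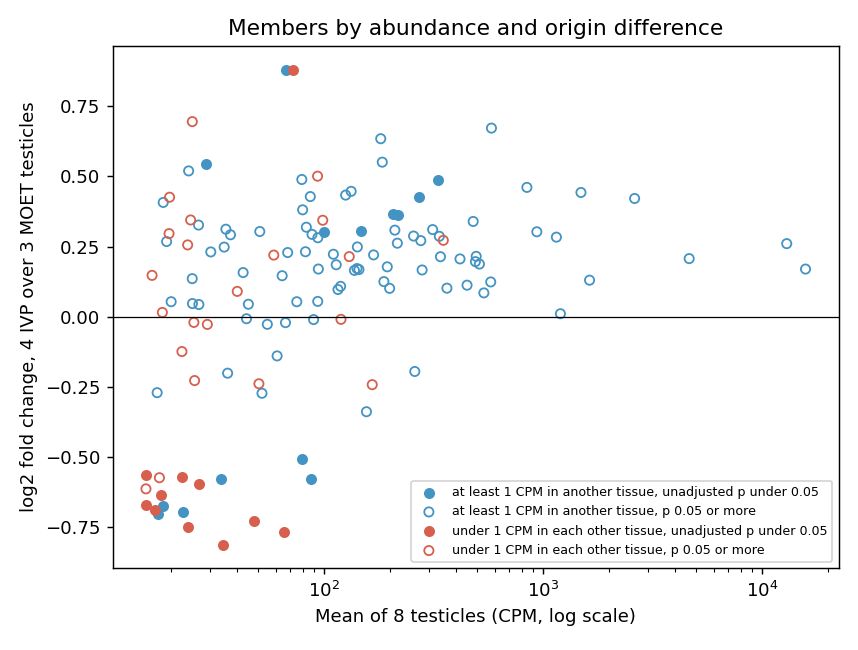
Log2 fold change of 4 IVP over 3 MOET testicles (vertical) against the mean of the testicle columns (CPM, horizontal, log scale), 1 point a member, red for those under 1 CPM in each other tissue and filled where the unadjusted p was under 0.05. The 10 most abundant members are all above 0 and unfilled, and most filled points below 0 are at low abundance.

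ENSBTAG00000007403, of rank 74, had the smallest p among members higher in IVP in either fit. It was at 80.9, 82.0, 94.4 and 93.5 CPM in IVP and at 44.1, 38.0 and 61.0 CPM in MOET 3217, 3218 and 5932, that is 87.7 ± 7.23 (SD, n = 4) against 47.7 ± 11.9 CPM (SD, n = 3). The groups did not overlap, and the log2 fold change was 0.88 with an SE of 0.18, at an adjusted p of 0.886 in edgeR on the 7 testicles and 0.236 over all 8 columns. The same gene passed DESeq2 on the 7 testicles at an adjusted p of 0.00796. Over 21 alternatives its adjusted p ran from 6.32e-05 to 0.936.

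ENSBTAG00000010389, of rank 43, was at 179.5, 145.0, 167.1 and 159.2 CPM in IVP and at 134.3, 125.1 and 135.1 CPM in the 3 independent MOET testicles. Its groups did not overlap either, and its p was the second smallest over all 8 columns and the third on the 7 testicles, after rank 31. The log2 fold change was 0.31 (SE 0.11), with an edgeR adjusted p of 0.926 on the 7 testicles and 0.343 over all 8 columns (0.00243 to 0.972 over the alternatives).

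ENSBTAG00000024132, of rank 124, was at 12.6, 13.2, 13.9 and 11.4 CPM in IVP and at 21.0, 18.3 and 22.4 CPM in the 3 independent MOET testicles. All IVP values lay below all MOET values. Its log2 fold change was -0.69 (SE 0.15), with an edgeR adjusted p of 0.886 on the 7 testicles and 0.236 over all 8 columns (2.31e-05 to 0.936 over the alternatives), and it passed DESeq2 on the 7 testicles at 0.00796.

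ENSBTAG00000050943, of rank 120, was at 13.3, 12.6, 16.5 and 13.1 CPM in IVP and at 22.0, 19.6 and 22.9 CPM in the same MOET testicles, again with no overlap. Its log2 fold change was -0.63 (SE 0.15), with an edgeR adjusted p of 0.886 on the 7 testicles and 0.238 over all 8 columns (5.06e-04 to 0.936 over the alternatives), and 0.0380 in DESeq2 on the 7. Both genes were under 1 CPM in every other tissue, as were ranks 108 and 111, which also lay lower in IVP without overlap. Rank 108 averaged 17.5 ± 3.57 CPM in IVP (SD, n = 4) and 29.3 ± 1.92 CPM in MOET (SD, n = 3).

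The rule also named ranks 31, 72 and 97 on the higher side and rank 118 on the lower. Rank 31 was at 259.0, 231.8, 239.7 and 249.8 CPM in IVP and at 224.1, 179.4 and 167.2 CPM in the independent MOET testicles, without overlap. Rank 72 was at 134.7, 70.6, 110.6 and 57.8 CPM in IVP and at 71.2, 39.6 and 41.4 CPM in MOET, so that the groups overlapped although its log2 fold change was 0.88 (SE 0.34). Rank 118 was at 13.5, 12.5, 16.6 and 13.3 CPM in IVP and at 25.8, 18.6 and 22.4 CPM in MOET, without overlap. None of them passed edgeR after adjustment, with adjusted p of 0.926, 0.933, 0.931 and 0.886 for ranks 31, 72, 97 and 118 on the 7 testicles.

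**Figure D5:**
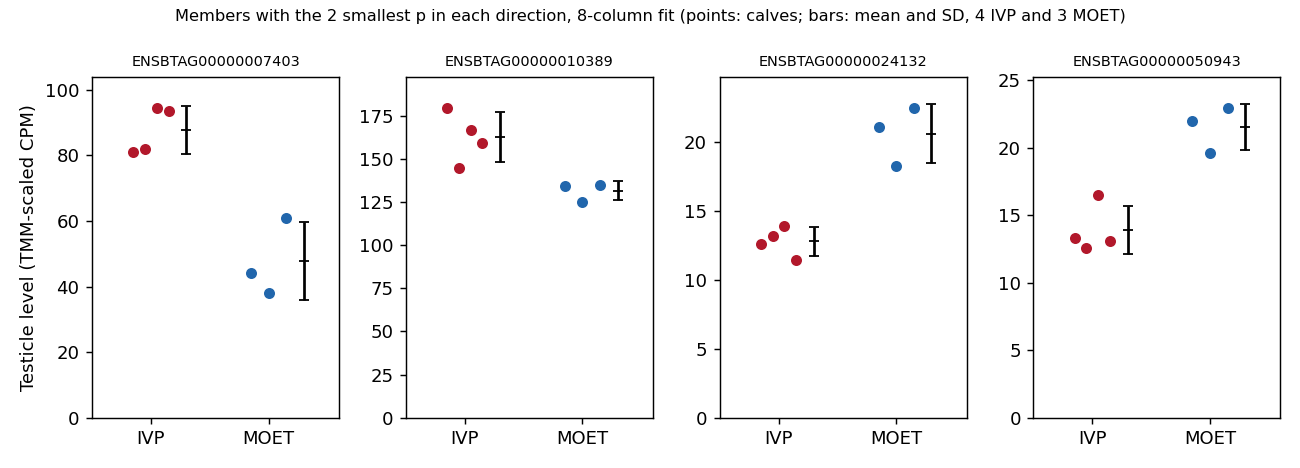
Testicle levels (TMM-scaled CPM, vertical, from 0) of the members with the 2 smallest p in each direction over all 8 columns, 1 point a calf, with mean and SD of 4 IVP and 3 MOET testicles beside the points. The groups do not overlap in any of the 4 genes: the first 2 are higher in IVP and the last 2 lower.

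The share of testicle counts that the members took overlapped between the origins. It was 5.70%, 7.24%, 5.64% and 5.65% in IVP and 4.82%, 5.39% and 6.69% in the 3 independent MOET testicles, or 6.06% ± 0.787 (SD, n = 4) against 5.63% ± 0.956 (SD, n = 3). The highest values were those of IVP 3209 and MOET 5932. The difference of 0.424 percentage points was smaller than either SD. Without these testicles the means were 5.67% ± 0.0338 (SD, n = 3) and 5.11% ± 0.403 (SD, n = 2), a difference of 0.558 percentage points that exceeded both SDs, and the shares did not overlap. Over all 8 columns the difference was 0.434 percentage points, and it was 0.0403 without IVP 3209, 0.166 without MOET 3217 and 0.788 without MOET 5932, so single testicles decided its size.

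In the other tissues the median member averaged 0.701 to 2.11 CPM, and 68 to 98 members passed the filter on low counts over all 8 columns. In the pituitary, 8 of 68 members passed the test (5 higher, 3 lower in IVP), beside 15.3% of all genes (7.51% higher, 7.78% lower). Without MOET 3213, 3 of 71 passed (2 higher, 1 lower), beside 2.37% (1.01% and 1.36%). The count over 8 columns was also 4 without IVP 3208 or IVP 5833, beside 4.91% and 8.77% of all genes, and 5 without MOET 3217, beside 12.5%. Rank 9 was at 9.55, 8.78, 8.76 and 9.66 CPM in IVP pituitaries and at 4.01, 3.93 and 5.25 CPM in the 3 independent MOET ones. Its log2 fold change was 1.05 (SE 0.14), with an edgeR adjusted p of 0.0266. Rank 1 fell from 144, 168 and 153 CPM in these MOET pituitaries to 130, 123, 123 and 129 CPM in IVP, with a log2 fold change of -0.30 (SE 0.06) and an edgeR adjusted p of 0.0496.

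In the adrenal the outcome turned on the dependent columns. Over all 8 columns, 33 of 98 members passed (19 higher, 14 lower in IVP), beside 39.3% of all genes (20.8% and 18.5%). Without MOET 3213 and IVP 5833, none of 100 passed, beside 0.0128% of all genes; 29 had an unadjusted p under 0.05, beside 30.6% of all genes, and DESeq2 called 20 (20%), beside 15.6% of all genes. When a single column was dropped from the 8, 18 members passed if it was MOET 3218, 19 if IVP 5833, 20 if MOET 5932 and 50 if IVP 3208. Of all genes, 15.6%, 16.1%, 19.9% and 52.5% passed in these fits. On library totals without TMM, over all 8 columns, 15 members passed as higher and 22 as lower, and the median log2 fold change moved from 0.18 to -0.01 in the members and from 0.00063 to -0.19 in all genes, so the balance of directions turned with the scaling. Rank 7 was at 23.7, 46.7 and 45.04 CPM in the 3 independent IVP adrenals and at 15.4, 14.3 and 10.7 CPM in the MOET ones, without overlap. Its log2 fold change was 1.52 (SE 0.27), with an edgeR adjusted p of 0.105, against 0.00840 over all 8 columns.

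In the hypothalamus no member passed in either fit, 0 of 81 over all 8 columns beside 0.056% of all genes (0.0498% higher, 0.00622% lower), and 0 of 83 without MOET 3213 beside 0.00614%. Over the 7 columns, 16 members (19.3%) had an unadjusted p under 0.05, beside 13.3% of all genes, and DESeq2 called 6 (7.23%), beside 1.53% of all genes. Rank 52 was at 6.70, 7.10, 7.04 and 8.32 CPM in IVP and at 12.3, 18.3 and 15.2 CPM in the 3 independent MOET hypothalami, without overlap, with an edgeR adjusted p of 0.374.

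Whether the origin difference of a member differed between tissues was tested by the interaction of tissue and origin. All 128 members entered this test, since counts in the testicle alone met the filter over all columns. Within the hypothalamus, pituitary and adrenal, 81, 68 and 98 members passed the filter over 8 columns. For members that failed it in a tissue, the test set the testicle against very few counts there. Over all 32 columns, 41 of 128 members passed in edgeR (32.03%), beside 30.2% of all genes. With the calf as a replicate block it was 43 (33.6%), beside 36.4%. Without the 5 dependent columns none passed, with or without the block, beside 0.212% of all genes without it. When calves 3209 and 5932 were left out as well, 31 members passed (24.2%), beside 32.4% of all genes. A single calf left out of all tissues gave 3 members for 3213, 7 for 3218, 9 for 5833, 19 for 5841 and 21 for 3217, beside 1.76%, 4.93%, 5.01%, 12.8% and 14.7% of all genes. It gave 37 for 5932, 39 for 3208 and 54 for 3209, beside 36.5%, 28.8% and 44.1%.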

How the data were processed

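RNA was sequenced from 32 labelled samples of 4 tissues. Per the labels' protocols, non-stranded libraries of poly(A) RNA (integrity number over 7) were read from both ends for 100 bases and filtered with SOAPnuke. STAR 2.7, HTSeq and the build bosTau9 are named in the submitters' processing notes; the sources used here name neither annotation release nor counting options. The authors deposited raw counts per Ensembl gene in 1 table. Without strand, overlapping and antisense genes cannot be told apart, and reads of near-identical copies may be split.

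Each column was compared with the geometric mean of the other columns of its tissue and origin. The residual was set against counting variance (genes with 20 counts or more in each column, ratio over 100 to 2000 counts). The same ratio was taken for the residual of a fit of the column's logarithm on those of the other columns. In each group, the column with the lowest fitted ratio was called dependent when that ratio was under 0.5. The check was tested on simulated data. It was made after the data were seen, so the planned tests over all columns are kept and given beside those without the 5 dependent columns. No pair of columns in a group was identical.

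Counts were filtered with filterByExpr (minimum count 10, minimum total 15), scaled by TMM and tested with edgeR 4.0.16 (robust quasi-likelihood, R 4.3.3), Benjamini-Hochberg adjusted over all genes of a tissue. DESeq2 1.42.0 and limma 3.58.1 were alternatives. Log2 levels used CPM plus 0.5. Intervals and floors cover counting error only. By the labels, samples of a group are separate calves, although the 5 dependent columns were not independent measurements. Calf numbers link tissues of 1 animal, never IVP with MOET.

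The members and lists were chosen with earlier results of these data known. Named are the 10 most abundant members, those with the largest spread, those with the smallest p in the testicle and the neighbours of both thresholds (the planned choice by MOET 3213 was dropped with its column), with at most 2 identifiers in each direction because 0 identifiers were paired with symbols. Other members named in other tissues were chosen after their values were seen. Without symbols, the 12 lists of cell type markers and pathways, and sequence features, were not analysed here.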

Additional observations from a re-analysis of the deposited data

Results flagged for a closer look

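In groups of 4 independent samples, a value was singled out when its gap to the nearest other value exceeded Dixon's critical share of the group's range, which chance gives in about 1 in 20 groups. Of 17 groups tested among the values printed, 7 met it, each through IVP 3209. Its members took 7.24% of the testicle counts. Rank 1 was at 25163 CPM in this testicle, rank 2 at 22939 CPM, rank 4 at 4679 CPM, rank 7 at 2178 CPM, rank 8 at 2455 CPM and rank 10 at 2003 CPM, each the highest of the 4 IVP testicles. Over all 128 members, 27 IVP groups (21.1%) met it, 26 of them through IVP 3209. The groups of members share the same 4 testicles, so they are not independent, and the share was not computed for other genes. Among the 7 independent testicles, IVP 3209 was the highest in 38.3% of members and the lowest in 21.1%. In the 8666 other genes at 15 CPM or more it was the highest in 43.4% and the lowest in 19.1%. MOET groups hold 3 independent testicles and were not tested in this way.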

How the results depend on the processing

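The alternatives without the dependent columns, without IVP 3209 and MOET 5932, and with the shared-axis score (each library's score on gene loadings averaged over the first components of the 3 other tissues) were chosen after seeing the data. The testicle log2 fold changes of the 4 genes named by identifier kept their sign under the alternatives run. So did the testicle median of the members. Without TMM the testicle median of all genes changed sign (0.03 to -0.08), as did the adrenal median of the members (0.18 to -0.01). The pituitary median of the members changed sign with the score (0.09 to -0.03). The testicle median of all genes was also negative with limma voom and quality weights (-0.0149) and without IVP 3209 (-0.0112). Without the dependent columns, IVP 3209 and MOET 5932, that median was -0.0048. Without the 5 dependent columns the member calls went from 8 to 3 in the pituitary and from 33 to 0 in the adrenal. In the interaction they went from 41 to 0 (43 to 0 with the replicate block). When calves 3209 and 5932 were also left out, the interaction gave 31.

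In the testicle, the calls over all genes (1) and members (0) became 289 and 9 with DESeq2, 5586 and 73 with limma voom and quality weights, 2011 and 42 with the score, and 180 over all genes in the fit of 32 columns. Without MOET 3213 they became 62 and 4 with DESeq2, 143 and 7 with the score, and 83 and 2 when IVP 3209 and MOET 5932 were also left out. In the hypothalamus (0 members) the member calls became 11 with DESeq2 (13.6%, beside 7.78% of all genes) and 37 with voom (45.7%, beside 53.8%). In the fit of 32 columns, where all 128 members were tested, they were 16 (12.5%, beside 11.1%). Without MOET 3213 they were 6 with DESeq2 (7.23%, beside 1.53%). When IVP 3209 and MOET 5932 were also left out, they were 14 (16.7%, beside 25.3%). In the pituitary (8) they became 4 without TMM (5.88%, beside 2.16%) or in the fit of 32 columns (3.1%, beside 1.86%). They became 30 with voom (44.1%, beside 48.0%) and 2 with age or the score (2.94%, beside 1.68% and 1.86%). Without MOET 3213 they were 0 with the score, beside 0.0125%, and 1 when the other 2 calves were also left out (1.41%, beside 0.106%). In the adrenal (33) they became 85 with voom (86.7%, beside 85.2%), 18 with age (18.4%, beside 18.8%) and 0 with the score (beside 0.0194%). Without the dependent columns they were 20 with DESeq2 (20%, beside 15.6%) and 0 with the score (beside 0.00641%). Without the other 2 calves too they were 0, beside 0.403%. The voom and 32-column fits and those with age or without TMM were run over all columns only. The causes of these changes were not tested. The rule gave 277 members at 4 times and 66 at 16 times. The median spread, 0.34 over 8 columns, was 0.18 without IVP 3209, MOET 5932 and MOET 3213.

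With each replicate left out in turn, the ranges were 0 to 9 calls over all genes and 0 to 0 among members in the testicle, 0 to 2 in the hypothalamus, 3 to 7 in the pituitary, 18 to 50 in the adrenal and 3 to 54 in the interaction. Of all genes, 0.00614% to 0.271% passed in these hypothalamus fits, 2.37% to 17.7% in the pituitary and 15.6% to 52.5% in the adrenal. In the interaction it was 1.76% to 44.1%. The ranges were 0.08 to 0.23 for the median log2 fold change, 125 to 130 for the number of members, 0.0403 to 0.788 percentage points for the share and 0.25 to 0.37 for the spread. Calls over all testicle genes were 2 without IVP 3208, 9 without IVP 3209, 0 without MOET 3217 and 3 without IVP 5833. With 3 independent MOET calves, small differences could not be told from the spread between calves. Age was carried by the MOET 3213 column, and the alternatives that used gene features or symbols were not run.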
